A study of Mus musculus with 5 samples.

Results

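Ciliated airway cells made up 153 of the 29500 cells that passed the filters in 5 mouse lung libraries. They were chosen by measured values: a barcode needed at least 700 genes, 0.1 to 15% mitochondrial UMIs (unique molecular identifiers, 1 per captured RNA molecule), at least 5 UMIs summed over Foxj1, Dynlrb2, Ccdc153 and Tmem212 with 2 or more of these genes present, at most 1 UMI of Cdh5, Pecam1 and Col1a2 together, and no Ptprc UMI. The 4 choosing genes are therefore high in these cells by construction. Of the 153 cells, 121 came from 1 library.

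The study asked how loss of β1 integrin from alveolar type 2 (AT2) cells, the surfactant-making cells of the lung, alters repair after lipopolysaccharide (LPS), a bacterial wall component given into the airway of adult mice. Each library held CD45-negative, Ter119-negative viable cells with 3 hashtags in use, each read here as 1 mouse. Each condition had 1 library. The groups were Itgb1 fl/fl mice 7 days after LPS (LPS fl/fl, 121 ciliated cells), Itgb1 iKO mice 7 days after LPS (LPS AT2-KO, 16 cells), Itgb1 iKO mice 7 days after the saline vehicle PBS (PBS AT2-KO, 12 cells), and Itgb1 fl/fl and Itgb1 iKO mice 21 days after LPS (2 cells each). The knockout mice carried the floxed Itgb1 allele with a doxycycline-induced Cre driven by the SP-C promoter, which is active in AT2 cells, so ciliated cells were not the aimed target of the deletion. The 21 day libraries were enriched for EPCAM-bearing cells and the 7 day libraries were not. With 1 library per condition, the condition and the library cannot be told apart, and no PBS-treated fl/fl library was analysed here.

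Multiciliated cells line the airways and move mucus towards the throat by the beating of many motile cilia. Each cilium is built on a basal body and holds an axoneme, a ring of doublet microtubules around a central pair, moved by outer and inner dynein arms and held in register by radial spokes, a dynein regulatory complex and proteins inside the microtubules. The programme is switched on by the geminin-family proteins Gmnc and Mcidas and maintained by the forkhead factor Foxj1 and the RFX factors, which bind the X-box.

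The promoters of the leading ciliated-cell genes are shown because these genes were high together in these cells and RFX and forkhead factors are the known regulators of cilia genes. RefSeq windows of GRCm38.p6, from 250 bases before to 50 after each gene start, were searched on both strands. The full X-box was defined as GTTNCC and GGNAAC with 0 to 3 bases between them, the half-site as either GTTNCC or GGNAAC, which every full X-box also contains, and the forkhead motif as GTAAACA. Fam183b, a cilia gene (minus strand, chr11:58801961-58802006), and 1110017D15Rik (minus strand, chr4:41507765-41507812), both among the 4 leading genes by ratio, held a full X-box close to the start. Capitals mark the motif, each read 5′ to 3′ on the gene's own strand.
Fam183b: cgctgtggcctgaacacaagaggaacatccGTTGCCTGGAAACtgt
1110017D15Rik: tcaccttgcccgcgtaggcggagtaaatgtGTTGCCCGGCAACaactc
Of the 4 choosing genes, Ccdc153 (plus strand, chr9:44240495-44240560), Dynlrb2 (plus strand, chr8:116504934-116504999) and Tmem212 (minus strand, chr3:27896369-27896416) had a window with a half-site, and Foxj1 had no entry. The half-sites are in capitals.
Ccdc153: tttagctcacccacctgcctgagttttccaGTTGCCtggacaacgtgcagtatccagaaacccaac
Dynlrb2: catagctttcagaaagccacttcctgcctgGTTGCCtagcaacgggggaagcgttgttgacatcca
Tmem212: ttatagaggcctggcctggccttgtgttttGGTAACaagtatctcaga
Sntn, which encodes a protein of the ciliary tip (plus strand, chr14:13670626-13670676), held the forkhead motif, in capitals.
Sntn: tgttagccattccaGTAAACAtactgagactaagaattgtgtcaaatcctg

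A full X-box was found in 13 of 340 ciliated-cell genes with a window (3.82%), where ciliated-cell genes are those at least 4-fold above other Epcam-positive cells and at 100 CPM (UMIs per 1000000 UMIs) or more in each of the 3 day 7 libraries. Among all 27025 genes with a window, 253 (0.936%) held one, and among 919 other genes at 100 CPM or more in the same cells, 12 did (1.31%). Among the 66 genes of the axonemal lists with a window 1 held a full X-box (1.52%) and 52 a half-site (78.8%). The half-site was present in 243 of the 340 (71.5%), in 48.8% of all genes and in 49.6% of the other expressed genes, a search added after the first counts were seen. A half-site was held by 16 of the 17 leading genes with a window, the exception being 2410004P03Rik. The forkhead motif was in 18 of 340 (5.29%), in 4.05% of all genes and in 2.18% of the other expressed genes. Median GC content of the windows was 56.7% for ciliated-cell genes, 62.3% for the other expressed genes and 52.8% for all genes. These counts describe letters in a fixed window and not binding.

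The label was checked with 8 cilia genes that the choice had not used. Rsph1, a radial spoke head protein, had a UMI in 92.6% of LPS fl/fl ciliated cells, in 2.89% of other Epcam-positive cells and in 0.992% of endothelial cells, whose median depth was 2504 UMIs against 6197 in ciliated cells. The heavy chain gene Dnah5 was detected in 84.3% of these cells against 0.384% of endothelial cells, and the docking-ruler gene Ccdc39 in 95.9% against 0.912%. In the 2 other day 7 libraries all 8 genes had UMIs in 58.3% or more of ciliated cells and in 2.55% or fewer of endothelial cells. The 2 LPS fl/fl cells of day 21 had no UMI of Dnah5, Hydin, Ccdc39 or Dnaic1, and their median was 1321 genes per cell, so their label rests on fewer genes. No Krt5, Muc5ac or Muc5b UMI, markers of basal and goblet cells, was found in any of the 149 ciliated cells of day 7.

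Few cells lay near the threshold. Among cells passing the exclusions, 3675 had no UMI of the 4 genes, 636 had 1 or 2, 42 had 3 or 4, just below the threshold, 5 had 5 or 6, just above it, and 132 had 12 or more. Of those just above it, 2 from LPS AT2-KO day 21 failed because only 1 gene was present. LPS AT2-KO day 7 had 11 cells with 3 UMIs and 2 with 4, beside its 16 ciliated cells. LPS fl/fl day 7 had 1 cell of each kind beside 121. With a sum of at least 3 UMIs the pooled share difference between LPS AT2-KO and PBS AT2-KO stayed at -21.2 percentage points. The sum per ciliated cell ran from 5 through a median of 45 to 255 in LPS fl/fl, from 6 through 38.5 to 171 in LPS AT2-KO and from 6 through 28 to 83 in PBS AT2-KO. In 28 of the 153 cells no Epcam UMI was found, and these stayed in the class.

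Several facts limit what these libraries can show. Ciliated cells gave 960087, 121204 and 69128 UMIs in the LPS fl/fl, LPS AT2-KO and PBS AT2-KO libraries of day 7 and 6627 and 7977 UMIs at day 21. Pairs of libraries shared 15 to 102 cell barcodes, 5 ciliated barcodes recurred in another library and none was ciliated in 2. Xist, the RNA of the inactive X, had a UMI in 85 of 121 LPS fl/fl cells, 0 of 16 LPS AT2-KO cells and 10 of 12 PBS AT2-KO cells, whereas Y-linked UMIs were found in 0, 10 and 0 cells, so sex cannot be told apart from genotype between the LPS libraries of day 7, nor from treatment between the AT2-KO libraries. No doublet caller was run. In all, 6 ciliated cells carried much RNA of another epithelial type: 4 in LPS fl/fl (2 with the AT2 markers, 2 with 10986 and 5311 UMIs of the club cell secretory gene Scgb1a1) and 2 in LPS AT2-KO (both with the AT2 markers, 1 of them with 1225 Sftpc UMIs). Values without these 6 mixed cells are given for the genes called over mice and for the main counts.

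Axonemal genes were high in these cells. All 81 genes of the 6 axonemal lists together reached 21869.9 CPM in LPS fl/fl, 19603 in LPS AT2-KO and 21337 in PBS AT2-KO ciliated cells. The same sum was 309.8, 229 and 180.1 CPM in endothelial cells of these libraries. In each of the 3 day 7 libraries 75 of the 81 genes were at least 4-fold above other Epcam-positive cells (10 CPM added to both), against 413 of 1566 genes (26.4%) at 100 CPM or more in each of these libraries. List members, here and below, were counted at any level, so the 2 shares have unlike thresholds. Of genes at 10 CPM or more in LPS fl/fl day 7 ciliated cells, 902 of 9112 (9.90%) were 4-fold higher in that library. With the 2 shallow day 21 libraries included, 27 of 81 were at least 4-fold higher in all 5, against 179 of 789 genes (22.7%). No test was made of this difference, because the cells were chosen from the same counts.

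**Figure D1:**
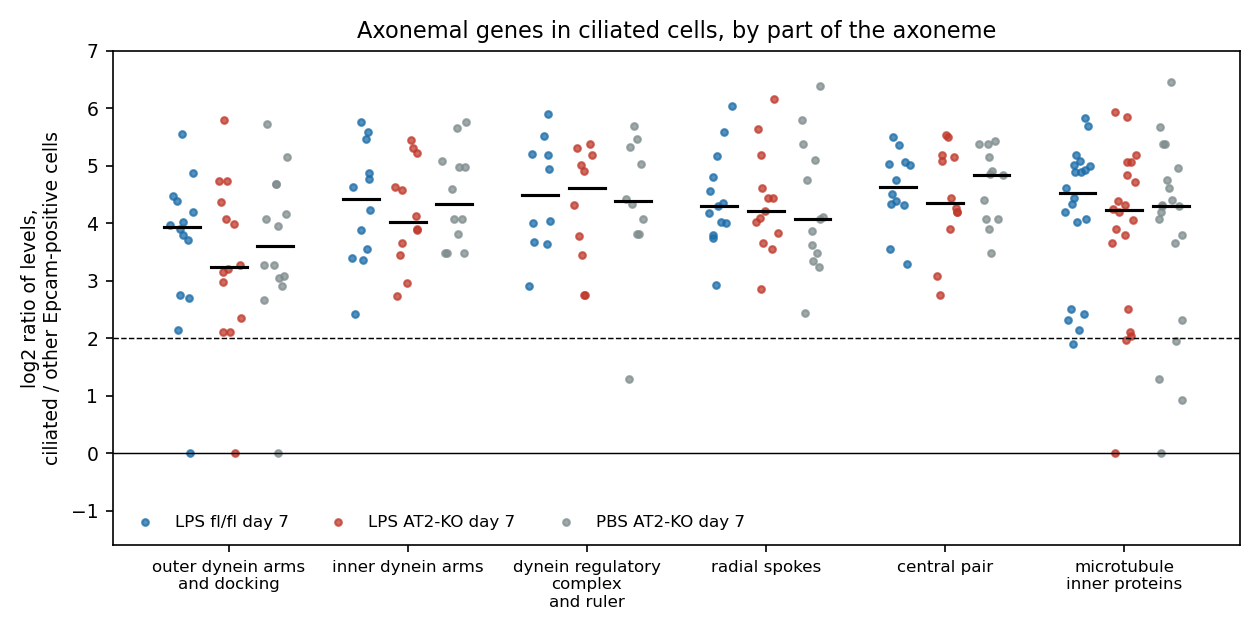
Each point is 1 axonemal gene, and the vertical axis gives the log2 ratio of its level in ciliated cells over other Epcam-positive cells of the same day 7 library (10 CPM added to both). Black bars are medians, the dashed line is 4-fold, points at 0 are Nme8 and Ribc2 where neither class had a UMI, and in all 6 parts of the axoneme the medians lie above it in LPS fl/fl, LPS AT2-KO and PBS AT2-KO.

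Outer arm and docking genes gave 13 of 14 members at 4-fold or more in the 3 day 7 libraries, with median ratios of 15.3, 9.49 and 12.6. The outer arm heavy chain gene Dnah5, mutated in primary ciliary dyskinesia, stood at 481 (438 to 527) CPM in LPS fl/fl, 561 (436 to 711) in LPS AT2-KO and 521 (365 to 721) in PBS AT2-KO (95% Poisson intervals, which cover counting error only). Nme8, the member that failed, had no UMI in any library. All 12 inner arm genes passed. The heavy chain gene Dnah6 was at 533 (488 to 582), 363 (264 to 487) and 535 (377 to 738) CPM in the same order. No outer or inner arm gene was called in the edgeR test over mice described further on (0 of 12 each). That test called 0.268% of all genes, too few for these zeros to decide whether the arm genes differed.

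Of the dynein regulatory complex and ruler genes 9 of 10 passed. Ccdc39, which with Ccdc40 sets the spacing along the doublet, stood at 587 (540.0 to 638) CPM in LPS fl/fl, 421 (313 to 553) in LPS AT2-KO and 506 (353 to 704) in PBS AT2-KO. All 13 radial spoke genes and all 12 central pair genes passed as well. Rsph1 was at 880.1 (822 to 942), 743 (597 to 913) and 825 (625 to 1068) CPM, and Spag17, a central pair protein, at 484 (441 to 530.4), 454 (342 to 591) and 405 (269 to 585). Of 20 microtubule inner protein genes 16 passed, among them Tekt1, a tektin filament gene, at 324 (289 to 362), 289 (201 to 402) and 405 (269 to 585) CPM.

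The genes that build and supply cilia were higher as well, by smaller ratios. Dynein assembly factors passed in 8 of 12, intraflagellar transport genes in 19 of 28, BBSome genes in 4 of 9 and basal body genes in 5 of 12 cases, with median ratios in LPS fl/fl of 8.71, 8.82, 4.84 and 5.42. The shares were 66.7, 67.9, 44.4 and 41.7%, beside 26.4% of all genes at 100 CPM or more, a level that list members did not have to reach. Traf3ip1, a subunit of the transport complex IFT-B, stood at 699 (647 to 754), 759 (612 to 931) and 665 (487 to 888) CPM, and in endothelial cells at 10.6 to 16.5. None of 10 planar polarity genes passed in all 3 libraries. Among 12 tubulin and stabiliser genes 4 passed (33.3%), including Tppp3, a tubulin polymerisation protein, at 1554 (1476 to 1635), 1625 (1406 to 1869) and 1707 (1413 to 2044) CPM, and Tubb4b, a β-tubulin of axonemes, at 3820.5 (3698 to 3946), 3003 (2703 to 3328) and 2618 (2251 to 3029) CPM. By mouse Tubb4b overlapped between groups, at 5755, 5082 and 3365 CPM in LPS fl/fl and 2302, 3829 and 2857 CPM in LPS AT2-KO (single-hashtag cells).

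Regulators differed in level. Foxj1 (chr11:116330704-116335399, minus strand, GRCm38) stood at 1926 (1839 to 2016), 1724 (1498 to 1975) and 1823 (1518 to 2170.2) CPM, and it was used in the choice. Ccdc78, which acts in centriole amplification, was at 349 (313 to 388), 289 (201 to 402) and 419.5 (281 to 602) CPM and Myb, a factor of multiciliated differentiation, at 266 (234 to 300.3), 256 (174 to 363) and 231 (132 to 376), against 0 to 1.30 in other Epcam-positive cells. Rfx2, Rfx3 and Trp73 were detected at 63.5 to 174 CPM. The early gene Gmnc had 1 UMI and Mcidas 7 UMIs over all 121 LPS fl/fl cells, and neither had any in the 28 other ciliated cells of day 7. The 6 early genes (Gmnc, Mcidas, Foxn4, Ccno, Cdc20b and Deup1) gave UMIs of 2 or more of them in 10 LPS fl/fl, 1 LPS AT2-KO and 0 PBS AT2-KO cells, and of at least 1 in 43, 7 and 2 cells. One LPS fl/fl cell, the mixed cell with 5311 Scgb1a1 UMIs, held 58 of the 132 early-gene UMIs of its group and 5 of the 6 genes, and the next cell held 9. The proliferation gene Mki67 had 2 UMIs in LPS fl/fl and none in the 2 other day 7 libraries.

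Some genes outside the cilium were high in the class. Sec14l3, a lipid-transfer protein gene, was at 5987 (5833 to 6144) CPM in LPS fl/fl, 6914 (6454 to 7398) in LPS AT2-KO and 6018 (5453 to 6625) in PBS AT2-KO, against 222 CPM in other Epcam-positive cells of LPS fl/fl. The cytochrome P450 gene Cyp2s1 stood at 1501 (1424 to 1580.5), 1790.4 (1560.1 to 2045) and 1721 (1426 to 2060.0) CPM against 0.23 to 4.75. Cd24a, a surface glycoprotein used to sort ciliated cells, was at 2385 (2288 to 2485), 2467 (2195 to 2763) and 2039.7 (1717 to 2406) CPM against 27.6 to 95.4. Of 29 xenobiotic and antioxidant enzyme genes 9 passed 4-fold in all day 7 libraries (31.0%), beside 26.4% of all genes at 100 CPM or more. The list members had no such level filter, so the shares do not tell whether this list stands out. The genes that passed are given as members and not as marks of the class. Among them were Gstm1, a glutathione transferase, and Aldh3b1, an aldehyde dehydrogenase. Itgb4, the β-subunit of the hemidesmosome integrin, was the single integrin of 12 to pass, at 146 (123 to 172), 182 (114 to 275) and 86.8 (31.9 to 189) CPM against 0 to 7.34. The chloride channel gene Cftr had 1 UMI in all 149 ciliated cells of day 7 and stood at 26.3 to 58.8 CPM in other Epcam-positive cells.

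The 25 leading genes, ranked by their lowest ratio over the 5 libraries, were led by Ccdc153 at 180.5-fold or more, Foxj1 at 102-fold and Fam183b at 74.4-fold. They included the radial spoke gene Nme5, the calmodulin-like gene Calml4, the tektin Tekt1, the doublet protein gene Rp1, the centriole gene Ccdc78 and uncharacterised genes such as 1110017D15Rik, Gm867 and AU040972. The lowest of the 25, Tm4sf1, had 28.4-fold. The level of AU040972 differed between libraries, at 2529 (2429 to 2632) CPM in LPS fl/fl, 2120.4 (1869 to 2396) in LPS AT2-KO and 434 (293 to 619.5) in PBS AT2-KO.

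Ciliated cells were a smaller share of Epcam-positive cells in LPS AT2-KO than in LPS fl/fl mice at day 7. They were 121 of 363 (33.3%, exact 95% interval 28.5 to 38.4) in LPS fl/fl, 16 of 575 (2.78%, 1.60 to 4.48) in LPS AT2-KO and 12 of 50 (24.0%, 13.1 to 38.2) in PBS AT2-KO. Ciliated cells without an Epcam UMI, 21, 2 and 3 in the same order, were counted in both the ciliated and the Epcam-positive cells. All other cells needed an Epcam UMI. Cells with a single hashtag gave shares of 12.1, 25.8 and 53.1% in the 3 LPS fl/fl mice and of 1.45, 1.14 and 4.60% in the 3 LPS AT2-KO mice. The means were 30.3% ± 20.9 and 2.39% ± 1.91 (SD, n = 3 mice each), the groups did not overlap, and a two-sided exact permutation test over mice gave p = 0.1, the smallest p that 3 against 3 allow. As a share of all cells the values were 0.498, 0.799 and 2.46% against 0.0619, 0.0588 and 0.246%, again without overlap. Against LPS fl/fl the share was thus lower with both denominators. Against PBS AT2-KO the direction depended on the denominator, since ciliated cells were 0.221% (0.126 to 0.359) of all LPS AT2-KO cells and 0.138% (0.0715 to 0.242) of all PBS AT2-KO cells, with intervals that overlap. The Epcam-positive denominator also differed, with 157, 511 and 34 AT2 cells in the LPS fl/fl, LPS AT2-KO and PBS AT2-KO libraries.

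The hashtag call limits the per-mouse values. A single hashtag was found in 78 of 121 ciliated cells of LPS fl/fl, 6 of 16 of LPS AT2-KO and 3 of 12 of PBS AT2-KO. PBS AT2-KO mice gave 2 of 6, 1 of 2 and 0 of 9, and no mouse reached 10 Epcam-positive cells, so no test was made. At day 21 the counts were 0 of 40, 0 of 42 and 2 of 82 in LPS fl/fl and 0 of 270, 0 of 216 and 1 of 356 in LPS AT2-KO mice. The difference was 0.719 percentage points (lower in LPS AT2-KO, exact permutation p = 1.0), and both groups held mice without a ciliated cell.

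**Figure D2:**
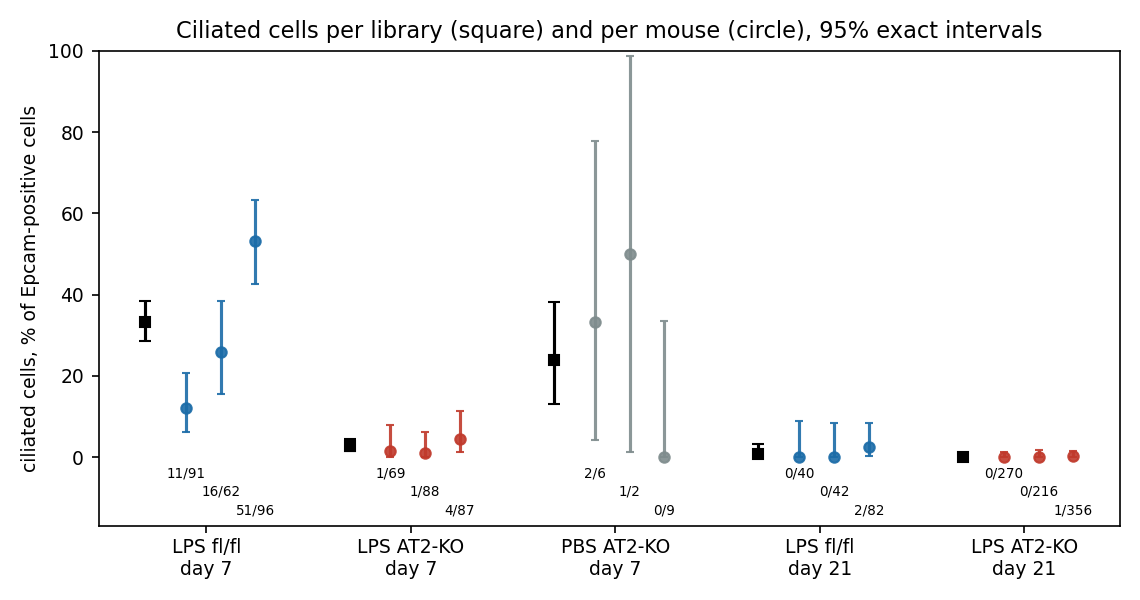
The vertical axis gives ciliated cells as a percent of Epcam-positive cells, for each library as a square and for each hashtag-called mouse as a circle, with exact 95% binomial intervals and the counts printed below. Ciliated cells without an Epcam UMI are counted among the Epcam-positive cells. The 3 LPS fl/fl mice at day 7 sit between 12.1 and 53.1%, above the 3 LPS AT2-KO mice at 1.14 to 4.60%.

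Few axonemal genes, and few genes of all kinds, differed 2-fold between pooled LPS AT2-KO and LPS fl/fl ciliated cells. On pooled levels (log2 of CPM plus 10, at least 100 CPM in either group), 65 of 2357 genes were at least 2-fold higher (2.76%) and 48 at least 2-fold lower (2.04%) in LPS AT2-KO. Of 72 axonemal genes tested 0 were higher and 2 lower, with a median log2 difference of -0.15 against 0.04 over all genes. The 2 were Ccdc151, an outer arm docking gene, at 41.3 against 146 CPM (246 in PBS AT2-KO), and Cfap74, a central pair gene, at 82.5 against 193 CPM. In LPS AT2-KO these rest on 5 and 10 UMIs. In the edgeR fit over mice described next, the median log2 fold change was -0.05 over all genes. It was -0.57 for the regulatory complex and ruler, -0.49 for outer arms, -0.27 for the central pair and -0.25 for inner arms. Radial spokes were at -0.17, microtubule inner proteins at -0.04, intraflagellar transport at -0.39, assembly factors at -0.38, basal body genes at -0.28 and the BBSome at -0.01. These medians were not tested. No p-value is given for a pooled difference, since each group is 1 library.

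In a test over mice 10 genes changed. The main hashtag call left a single LPS AT2-KO mouse with 3 or more ciliated cells, so mice of that group could not be compared with a fit, and each cell was instead assigned to its largest hashtag where that was at least 3 times the next. The 2 calls place cells differently, since LPS AT2-KO mouse 2 had 88 Epcam-positive cells by the single hashtag and 247 by the largest, and at day 21 LPS AT2-KO mouse 3 had 356 and 58. All per-mouse values of the called genes below rest on the largest hashtag. It gave sums of 14, 18 and 65 cells for 3 LPS fl/fl mice and of 5 and 4 cells for 2 LPS AT2-KO mice. edgeR's quasi-likelihood test called 10 of 3735 genes at an adjusted p under 0.05 (0.268%), 6 higher and 4 lower. Of 75 axonemal genes in that fit 1 was called, Cfap53. Tuba1a was called in each of 5 fits that left out 1 mouse, and the 9 others each lost their call in at least 1 of them. DESeq2 called 3 genes, Tuba1a, Abca3 and Scgb1a1. Without LPS fl/fl mouse 1, or without LPS AT2-KO mouse 2, edgeR called 1 gene, and without LPS fl/fl mouse 3 it called 21. With single-hashtag cells and mice of 1 cell or more, edgeR called 0 of 432 genes, 19 having an unadjusted p under 0.05.

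Tuba1a, an α-tubulin gene (chr15:98949837-98953703, minus strand, GRCm38), was higher in LPS AT2-KO. By mouse it stood at 777, 847 and 428 CPM in LPS fl/fl and at 4163 and 3946 CPM in LPS AT2-KO, without overlap. The log2 fold change was 2.53 (SE 0.32, edgeR adjusted p = 0.0014). Without the mixed cells the LPS AT2-KO mice were at 4428 and 2742 CPM and the log2 fold change was 2.22. Pooled levels were 573 (526 to 623) CPM in LPS fl/fl, 3853 (3511 to 4219) in LPS AT2-KO and 3891 (3440.2 to 4385) in PBS AT2-KO. Endothelial cells differed in the same order, at 127, 945 and 1156 CPM. Its close copies Tuba1b and Tuba1c, whose reads may be split with it, were lower in LPS AT2-KO ciliated cells, at 726 against 1145 and 24.8 against 101 CPM.

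Cfap53, a microtubule inner protein gene that stabilises outer arm docking, was called lower, but only the cells assigned to a mouse showed the fall. By mouse it was at 346, 330 and 356 CPM in LPS fl/fl, at 91.7 and 34.0 CPM in LPS AT2-KO and at 484 CPM in the 1 PBS AT2-KO mouse. The log2 fold change was -2.32 (SE 0.46, edgeR adjusted p = 0.029). These mice hold 9 of the 16 LPS AT2-KO cells, and all 16 together gave 215 (140.1 to 314) CPM against 356 (319 to 396) in LPS fl/fl, a smaller difference of -0.71 on the log2 scale. The LPS AT2-KO mice held 5 and 1 UMIs. The LPS AT2-KO cells given to no mouse held the rest, at a level above that of LPS fl/fl. DESeq2 did not call the gene (DESeq2 adjusted p = 0.55).

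The other 8 called genes were 5 AT2 genes, the club cell gene Scgb1a1, Saa3 and Gm8797. Abca3, the surfactant lipid transporter of AT2 cells, stood at 72.9, 64.6 and 95.7 CPM by mouse in LPS fl/fl and at 385 and 442 in LPS AT2-KO (log2 fold change 2.24, edgeR adjusted p = 0.0094), and its endothelial level was 48.5 and 147 CPM. Sftpa1, Sftpc, Cxcl15 and Slc34a2, all AT2 genes, were higher through 1 mouse, which holds the cell with 1225 Sftpc UMIs. Without the mixed cells Sftpc had a log2 fold change of 0.43 with an edgeR adjusted p of 0.90. Scgb1a1 was at 4820, 4154 and 12899 CPM against 605 and 1497 (log2 fold change -2.92), and without the mixed cells at 4820, 4154 and 3369 against 661 and 1175. Endothelial cells, which do not make it, had 1546 CPM in LPS fl/fl and 1537 in LPS AT2-KO.

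Saa3, an acute phase protein gene, was found in 25 of 121 LPS fl/fl cells and in none of 16 LPS AT2-KO or 12 PBS AT2-KO cells. By mouse it was at 279, 172 and 173 CPM in LPS fl/fl, and pooled it was at least 7.15-fold higher there than the 3 UMIs that a count of 0 allows in LPS AT2-KO. Without the mixed cells the third mouse was at 139 CPM. In LPS fl/fl 4 cells held 126 of the 170 Saa3 UMIs, and the same cells had 352, 91, 5311 and 205 Scgb1a1 UMIs against a median of 17 per ciliated cell. Without these 4 cells the difference was at least 1.99-fold, and the part of club cell RNA in it was not tested. Endothelial levels were 3.12 and 3.51 CPM. The predicted gene Gm8797 was at 231, 208 and 236 CPM by mouse in LPS fl/fl against 18.3 and 0 in LPS AT2-KO, and it differed likewise in endothelial cells (156 and 9.37 CPM).

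Without the 6 mixed cells edgeR called 20 genes, 6 of them among the 10. Added genes included Cdkn1c, the cell cycle inhibitor p57, at 1330, 2023 and 216 CPM by mouse in LPS fl/fl against 286 and 112 (edgeR adjusted p = 0.0013). Also added was D430036J16Rik, at 310, 258 and 302 against 22.0 and 112 CPM (edgeR adjusted p = 0.013), with endothelial levels under 1 CPM. Lars2 was at 1093, 1679 and 1897 against 308 and 280 CPM (edgeR adjusted p = 8.3e-05). Xist, Hspe1, Dnajb1, Dusp1, Ier2, Id1 and Aoc1 were also added as lower, and Lgals3, S100a6, Cacna1s and Dynlt1f as higher. For Cdkn1c the third LPS fl/fl mouse lay within the range of the LPS AT2-KO mice, so its groups overlapped. Those of S100a6 and Cacna1s overlapped too.

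**Figure D3:**
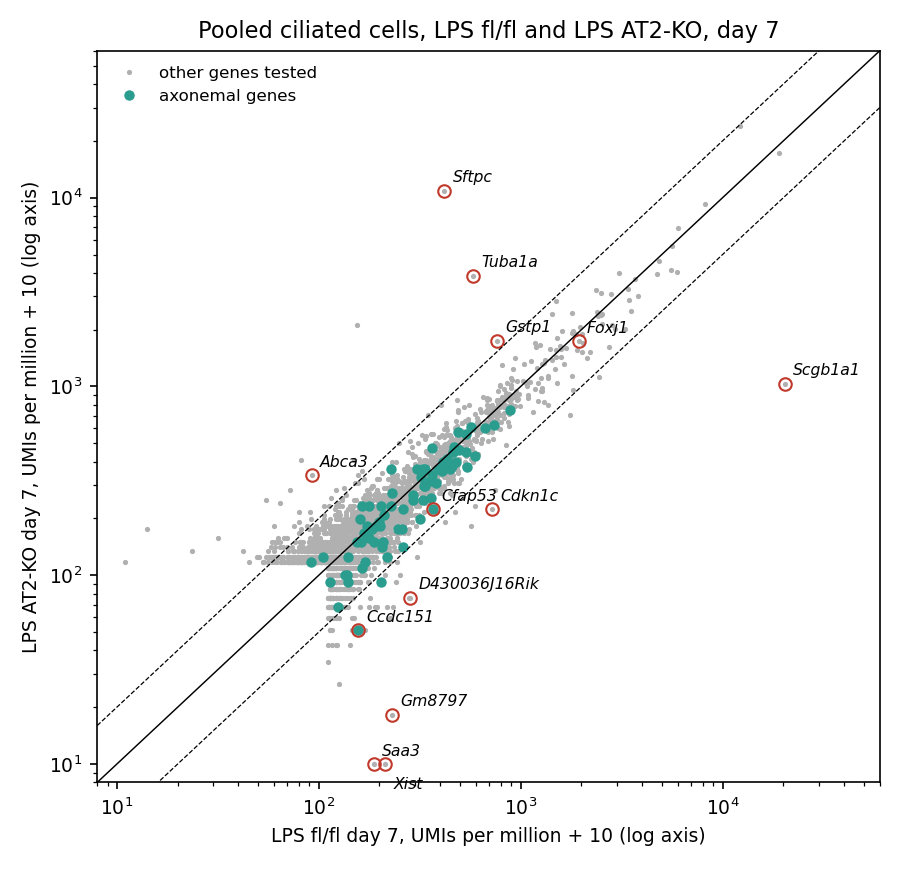
Each point is 1 of 2357 genes, with its pooled level in 121 LPS fl/fl ciliated cells on the horizontal axis and in 16 LPS AT2-KO cells on the vertical axis, both as CPM plus 10 on log axes. The solid line is equality and the dashed lines are 2-fold. Axonemal genes lie within the dashed lines except Ccdc151 and Cfap74, while Tuba1a and Sftpc lie above it and Scgb1a1, Saa3, Gm8797 and Xist below it.

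By the pooled ranking, Sftpa1, Lamp3, Tuba1a, Scd1, Dbp and Sftpd were the highest in LPS AT2-KO and Scgb1a1, Saa3, Gm8797, D430036J16Rik, Fosb and Id2 the lowest. A single LPS AT2-KO cell gave 84.6% or more of the UMIs of Sftpa1, Lamp3, Scd1 and Sftpd. Dbp, a clock output factor, was at 239 against 44.8 CPM (29 and 43 UMIs), and endothelial cells were at 90.2 against 8.44. Of the 65 and 48 genes beyond 2-fold, 21 and 40 stayed beyond it when the cell with the most UMIs of that gene was left out of the higher group. Antigen presentation genes were lower in 3 of 7 tested (median -0.59) and heat shock genes in 3 of 9 (median -0.67). These stand beside 2.04% lower among all genes, and 2 of the 3 antigen presentation genes stayed lower without the highest cell of each. The edgeR fit over mice called 0 of 8 antigen presentation and 0 of 9 heat shock genes. It called 0.268% of all genes, too few for these zeros to decide whether the lists differed. Without the mixed cells edgeR called 20 of 4239 genes, none of them an antigen presentation gene. The heat shock genes Hspe1 (log2 fold change -3.97, edgeR adjusted p = 0.0043) and Dnajb1 (-1.75, edgeR adjusted p = 0.021) were then called lower. The class I gene H2-K1 stood at 1114 (934 to 1318) against 2432 (2334 to 2533) CPM. Its level in LPS fl/fl rested on 1 mouse, with single-hashtag levels of 1067 (906 to 1249), 1059 (887 to 1255) and 3755 (3579 to 3937) CPM, the first 2 of which overlap the LPS AT2-KO level. H2-D1 and B2m were likewise highest in the third mouse.

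LPS AT2-KO ciliated cells had more antigen presentation RNA than PBS AT2-KO ciliated cells. Class I molecules with B2m show peptides on nearly every cell, and class II molecules with the invariant chain Cd74 show them to helper T cells. Of 11 list members, 6 reached 100 CPM in either group and were tested. All 6 were at least 2-fold higher in the LPS cells, against 204 of 2727 genes (7.48%) higher and 271 (9.94%) lower among all genes, with medians of 2.95 for the list and -0.07 for all genes on the log2 scale. Cd74 and H2-Aa reached 100 CPM in the LPS cells only, so the filter favoured a higher count. The members were chosen with earlier results of these data known. Cd74 was at 1509.9 (1299 to 1745) CPM against 72.3 (23.5 to 169), and LPS fl/fl was at 2003 (1914 to 2095). The class II gene H2-Aa was at 322 (229 to 439.9) CPM against 0 UMIs, at least 7.41-fold higher than a count of 0 allows. For H2-K1 the levels were 1114 (934 to 1318) and 289 (177 to 447) CPM and for H2-D1 1403 (1199.7 to 1630.0) and 492 (341 to 687). The 11 genes summed to 7837 CPM in LPS fl/fl, 4810.1 in LPS AT2-KO and 1042 in PBS AT2-KO ciliated cells.

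Endothelial cells had sums of 15077, 15653 and 17203 CPM in the same order, above those of ciliated cells. Their level therefore does not give the free RNA of these genes. Free AT2 RNA differed between the AT2-KO libraries, with an endothelial 95th percentile of 16 Sftpc UMIs in LPS AT2-KO and 2 in PBS AT2-KO. Of the 6 antigen presentation genes 5 stayed beyond 2-fold without the highest cell of each, H2-D1 being the exception at 0.97. The difference rests on 16 and 12 cells of 1 library each and 20 UMIs of H2-K1 in PBS AT2-KO, and with single-hashtag mice of 1 cell or more edgeR called 0 of 432 genes between these groups (35 at an unadjusted p under 0.05). The 2 groups also differed in sex markers. AT2 RNA moved in the same direction, with all 6 AT2 markers at least 2-fold higher in LPS AT2-KO and sums of 13935 against 246 CPM, 3 of the markers having no UMI in PBS AT2-KO, and Cd74 and class II genes are also expressed by AT2 cells. Without the mixed cells the AT2 sum was 1333 CPM with 3 of 6 markers beyond 2-fold, all 6 antigen presentation genes stayed beyond 2-fold with a median of 2.78, and Cd74 was at 1035 CPM. The part of AT2 RNA in the remaining difference was not tested.

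**Figure D4:**
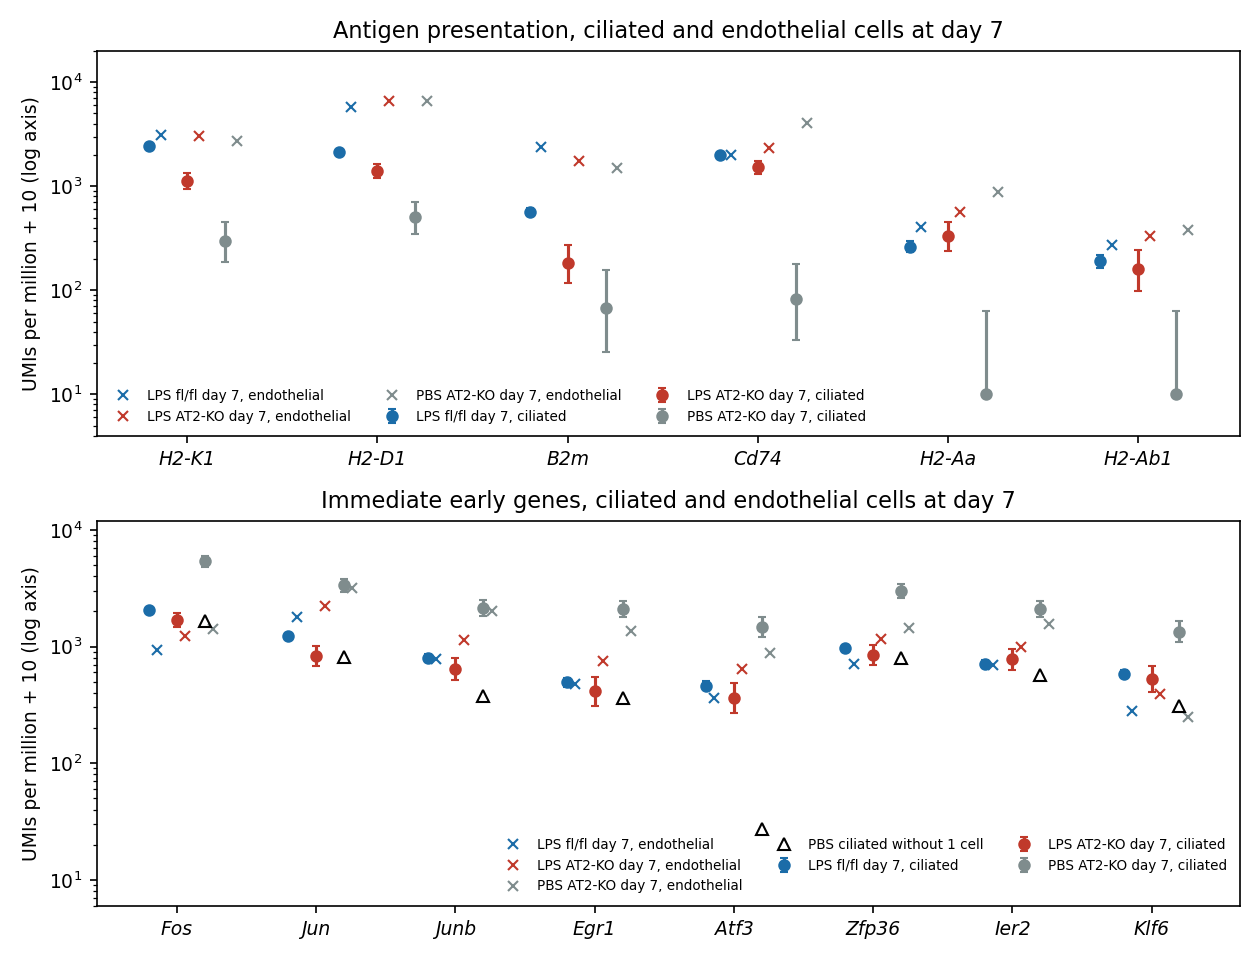
Circles are pooled levels in ciliated cells with 95% Poisson intervals and crosses are endothelial levels of the same library, as CPM plus 10 on a log axis, for 6 antigen presentation genes (upper panel) and 8 immediate early genes (lower panel). PBS AT2-KO ciliated cells are lowest for all 6 in the upper panel, and in the lower panel open triangles show that PBS AT2-KO levels without 1 cell lie below the LPS fl/fl and LPS AT2-KO circles for all 8.

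Immediate early genes differed through 1 cell. These genes, such as Fos and Jun, respond within minutes to stimuli that include tissue dissociation. Of 13 genes tested 11 were at least 2-fold lower in LPS AT2-KO than in PBS AT2-KO (median -1.74), beside 9.94% of all genes, with Fos at 1683 against 5352 CPM and Egr1 at 404 against 2098. One PBS AT2-KO cell held 78.8% of the immediate early UMIs of its group. Without it the sum was 5959 instead of 23247 CPM, 0 of 13 genes were 2-fold lower, and the median was 0.37. Socs3, Nfkbia and Elf3 each had 74.5 to 96.0% of their PBS AT2-KO UMIs in 1 cell.

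Heat shock genes were lower in 4 of 9 and higher in 1 in LPS AT2-KO than in PBS AT2-KO, beside 9.94% lower and 7.48% higher among all genes, and the 4 stayed lower without their highest cell. Hspa8, a constitutive chaperone, was at 949 (783 to 1139) against 3052 (2654 to 3493) CPM, and Hsph1, its exchange factor, at 297 (208 to 411) against 940.3 (726 to 1198). For Hsph1 endothelial cells were at 43.8 and 42.6 CPM, while for Hspa8 they differed in the same direction (1432 and 2617). LPS fl/fl ciliated cells lay between, at 1799 CPM for Hspa8 and 456 for Hsph1.

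AU040972, a leading ciliated-cell gene, was higher in LPS AT2-KO than in PBS AT2-KO, at 2120.4 (1869 to 2396) against 434 (293 to 619.5) CPM, and had UMIs in 13 of 16 against 5 of 12 cells. The highest LPS AT2-KO cell held 38.9% of its UMIs, and the log2 difference of 2.26 became 1.75 without that cell. Hes6, a Notch pathway regulator, was at 503 (385 to 646) against 86.8 (31.9 to 189) CPM, with 50.8% of the LPS UMIs in 1 cell, and Clu, a secreted chaperone, at 272 (187 to 382) against 28.9 (3.50 to 105). Of 73 axonemal genes 1 was higher and 4 lower (median -0.11), beside 7.48% higher and 9.94% lower among all genes. Ccdc151 was the lowest of them, at 41.3 (13.4 to 96.3) against 246 (143 to 394) CPM. The pooled ranking named Sftpa1, Sftpc, Cxcl15, Lyz2, Cacna1s and Slc34a2 as the highest and Fabp4, Xist, Socs3, Cdk16, Trim11 and Six4 as the lowest, of which Cacna1s, Slc34a2 and Fabp4 came from 1 cell each.

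The 3 LPS fl/fl mice shared a library, so that their cells can be set side by side without a library difference, a description made after the values were seen. Their single-hashtag sums held 11, 16 and 51 ciliated cells. Of 2007 genes at 100 CPM or more, 192 differed at least 2-fold and 24 at least 4-fold between the highest and the lowest mouse, with a median ratio of 1.39. Of 70 axonemal genes 5 differed 2-fold, with a median of 1.44 and a highest of 2.55. Cd74 stood at 207 (139 to 295) and 462 (351 to 597) CPM in the first 2 mice and at 3324 (3158 to 3495) in the third, which was also the mouse with most ciliated cells. H2-Aa was at 20.7 (4.26 to 60.4), 63.7 (27.5 to 126) and 431 (373 to 496) CPM. Of the UMIs in all LPS fl/fl ciliated cells, 1 cell held 24.0% for Cd74 and 27.7% for H2-Aa. The AT2 marker Sftpb had the widest spread, at 6.88, 39.8 and 341 CPM, with 37.6% in 1 cell. By the largest hashtag the third mouse had 65 cells, and 62 without the mixed cells. The part of AT2 RNA and mixed cells in the spread of the class II genes was not tested.

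The third mouse was low in other genes. Cdkn1c was at 1494 (1302 to 1706) and 2071 (1827 to 2338) CPM in the first 2 and 202 (163 to 248) in the third, and the stress factor gene Atf3 at 1157 (988 to 1345), 685 (548 to 846) and 183 (145 to 226). Endothelial cells of the same mice had Cd74 at 1690, 1538 and 2969 CPM, Cdkn1c at 14.2, 21.3 and 19.8 and Atf3 at 500.2, 288 and 261. The spread of Cd74 among mice of 1 group, 207 to 3324 CPM, covered the pooled LPS AT2-KO level of 1510 CPM, and PBS AT2-KO at 72.3 CPM lay below all 3.

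**Figure D5:**
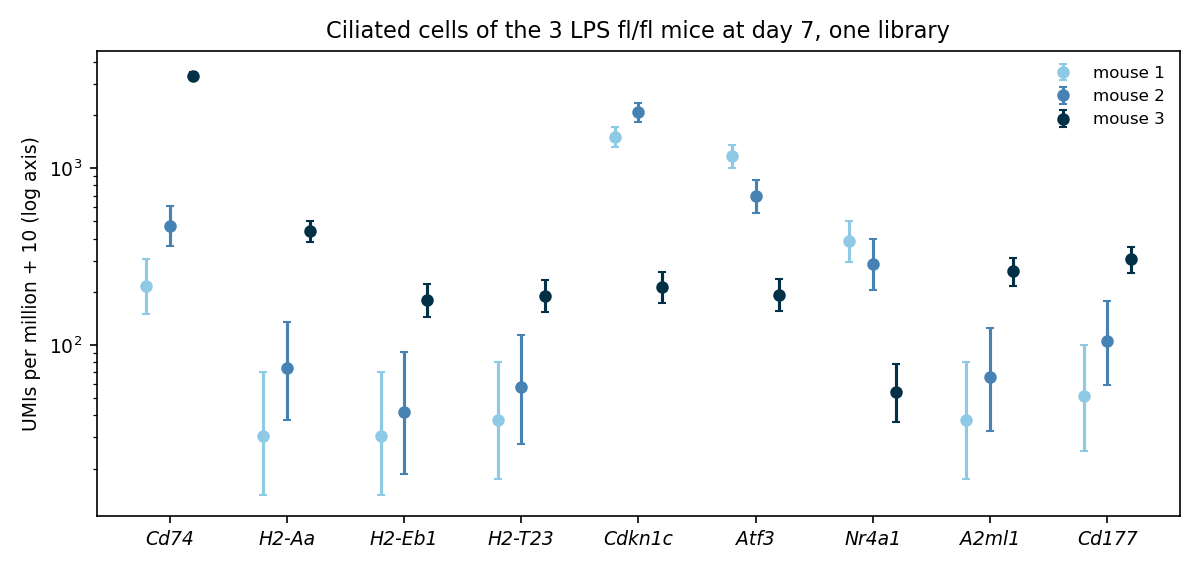
Levels of 9 genes in single-hashtag ciliated cells of the 3 LPS fl/fl mice at day 7, as CPM plus 10 on a log axis with 95% Poisson intervals. The third mouse is above the other two for Cd74, H2-Aa, H2-Eb1, H2-T23, A2ml1 and Cd177 and below them for Cdkn1c, Atf3 and Nr4a1.

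Itgb1, the targeted gene, did not differ detectably in ciliated cells. At day 7 it gave 29 UMIs in LPS AT2-KO and 219 in LPS fl/fl, or 239 (160.2 to 344) and 228 (199 to 260.4) CPM, with PBS AT2-KO at 231 (132 to 376). The log2 ratio was 0.09 (exact 95% interval -0.54 to 0.63), and the test over mice gave a log2 fold change of 0.05 (SE 0.36, edgeR adjusted p = 0.99). With single-hashtag cells the log2 ratio was -0.57 and as a mean of mice -1.0, so the direction was not settled. At day 21 there were 5 UMIs in LPS AT2-KO and 0 in LPS fl/fl cells. Endothelial cells, in which Itgb1 was also not targeted, had 1047, 1059.7 and 742 CPM at day 7. Among other integrins, Itga3 was at 91.7, 66.0 and 57.9 CPM and Itga6 at 41.7, 66.0 and 86.8, each from 4 to 88 UMIs.

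The 4 ciliated cells of day 21 gave few UMIs. The 2 LPS AT2-KO cells held 148 axonemal UMIs and the 2 LPS fl/fl cells 93, or 18553 and 14033 CPM. Foxj1 had 15 and 7 UMIs and Ccdc153 15 and 15. One LPS fl/fl cell held all 600 Scgb1a1 UMIs of that pair. No difference between the 2 groups was read from these cells.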

How the data were processed

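Lung cells were measured in 5 libraries. In each, 3 hashtags were in use, and each was read here as 1 mouse, while the paper gives 3 to 4 mice per group. The authors deposited raw UMI counts per gene and barcode, made with Cell Ranger 3.1 on mm10 (Seurat 4.1.0 is also named in the submitters' processing notes), with 5 hashtag features. Counts were summed over ciliated cells and divided by the cells' total UMIs (CPM). Comparison classes came from marker genes, and endothelial cells gave the level of free RNA for genes that they do not make. A cell was given to a mouse when 1 hashtag was at least 4 times its median and 10 UMIs, and otherwise to none; the alternative took the largest hashtag. Mice were compared with exact permutation tests and, on counts summed per mouse, with edgeR 4.0.16 (quasi-likelihood, TMM, Benjamini-Hochberg) and DESeq2 1.42.0 in R 4.3.3. The edgeR step was also run on simulated counts with the same spread for all genes and the same mean profile for all mice. That run does not bear on calls that rest on single cells or on the hashtag call. Mice within a library share its preparation. No doublet caller was run. Named genes were the 25 leading genes, all called genes, and the 6 largest pooled differences each way, with list members by level. Genes set apart between the 3 LPS fl/fl mice were chosen after their values were seen. The members and lists were chosen with earlier results of these data known. Alternatives varied thresholds, depth, hashtag call, normalization, tool and left-out mice. Total filtered depth per library was 8360954 to 29128331 UMIs, and intervals cover counting error only.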

Additional observations from a re-analysis of the deposited data

How the results depend on the processing

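Of 79 alternatives, 59 kept their value or call, 17 moved, 1 was weaker and 2 reversed. The day 7 share difference between LPS AT2-KO and LPS fl/fl stayed negative, from -37.1 to -16.6 percentage points over left-out mice. It was -27.9 points in the main setting and -40.2 with cells thinned to 2000 UMIs. Against PBS AT2-KO the difference was -24.6 points with cells thinned to 2000 UMIs instead of -21.2, and it reversed to 0.0826 points with all cells as the denominator. At day 21 it ranged from -1.13 to 0.0936 over left-out mice, reversed without LPS fl/fl mouse 3, whose 2 ciliated cells are all of that group. The planned count of changed genes could not be fitted, since 1 LPS AT2-KO mouse had 3 cells, and the alternatives that build on it were not run. The largest hashtag gave 10, and mice with 1 cell or more gave 0 for LPS fl/fl and 0 for PBS AT2-KO. From the 10, no filter on low counts gave 32, DESeq2 3, leaving out mixed cells 20, leaving out genes with endothelial levels over 25% of the ciliated level 6, and leaving out 1 mouse 1 to 21. Sftpc had a log2 fold change of 0.43 without mixed cells (edgeR adjusted p 0.90). Axonemal genes at 4-fold in all libraries numbered 27, 16 with 50 CPM added, 8 with thinned cells, 75 in the day 7 libraries and 79 in LPS fl/fl day 7. Itgb1 was -0.57 with single-hashtag cells and -1.0 as a mean of mice. Without the highest cell of each gene, 61 of 113 and 232 of 475 pooled differences remained. Without the mixed cells these numbered 131 and 490. The causes were not tested. The alternatives with all cells as the denominator, 1 cell per mouse, mixed cells, single cells and day 7 libraries were chosen after seeing the data. No paired analysis was possible because hashtag numbers name different mice in each library.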
